A study of Homo sapiens with 16 samples.

Results

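The 10 genes described here encode parts of autophagy and of mitophagy, its branch for mitochondria: BNIP3, BNIP3L, FUNDC1, ULK1, BECN1, SQSTM1, MAP1LC3B, GABARAPL1, ATG5 and ATG7. They were taken by name from a table of 28252 genes. All 10 had a value in every culture and so belonged to the 15864 genes tested. The table holds translation ratios, the RNA bound to ribosomes with their growing chains (RNC) over the total RNA of the same gene. H9, a line of human embryonic stem cells, was grown without feeder cells and given an siRNA. The 4 groups were siOCT4 at 1% oxygen, siOCT4 at 20% oxygen, NC at 1% oxygen and NC at 20% oxygen. NC is the label of the control siRNA, siOCT4 is directed at OCT4, a transcription factor of pluripotency encoded by POU5F1, and 1% oxygen is labelled hypoxia. Each group had 2 replicates, each with a library of total RNA and one of RNC-bound RNA, 16 libraries in all. The 2 libraries of a replicate were matched by title, and each replicate is called a culture here. That both came from the same cells is not stated in the titles. How long cells spent at 1% oxygen is not given in the sources used here.

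In autophagy a double membrane closes around cytoplasm or a damaged organelle and carries it to the lysosome. The ULK1 kinase and a lipid kinase complex with BECN1 start the membrane. ATG7 and ATG5 belong to the machinery that attaches proteins of the ATG8 family, such as MAP1LC3B and GABARAPL1, to lipid, and receptors such as SQSTM1 tie cargo to them. BNIP3, BNIP3L and FUNDC1 sit on the outer mitochondrial membrane and bind ATG8 proteins, and BNIP3 and BNIP3L are known targets of the hypoxia-inducible factors.

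No RNA or RNC level of a single library is in the table. A change of a ratio therefore cannot be assigned to the RNC or to the RNA side, the knockdown of OCT4 cannot be checked from a level, and the depth behind a value is unknown. All 10 pluripotency markers listed, POU5F1 among them, had a ratio in every culture. So did 6 of 6 endoderm, 5 of 5 neuroectoderm, 4 of 5 mesoderm, 3 of 8 trophectoderm and 3 of 6 fibroblast markers. Nothing in the labels says that replicates came from separate growths, so p-values measure only the spread between these samples, which may be technical.

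The groups differed in how the ratio of all genes ran with base composition, which touches every result below. In NC cultures at 20% oxygen AU-rich transcripts had high ratios and GC-rich transcripts low ones. There, a smooth curve on transcript GC content took up 71.6% and 64.9% of the variance of the log2 ratio over genes in replicates 1 and 2. In siOCT4 cultures at 1% oxygen it took up 64.1% and 66.2%. In siOCT4 cultures at 20% oxygen the share was 14.3% and 9.24%, and in NC cultures at 1% oxygen 0.0973% and 9.99%. The trend was therefore steep in one group and shallow in the other of each of the 4 comparisons of 2 groups described below, of siOCT4 with NC and of 1% with 20% oxygen. NC cultures at 20% oxygen and siOCT4 cultures at 1% oxygen, set against each other only in the order of levels, were both steep. Each change is given as deposited and, as GC corrected, from the distance of a gene's log2 ratio to the curve of its culture. What sets the trend was not tested.

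The genes spanned much of that range. ATG5 (38.8% GC), BNIP3L (38.9%) and FUNDC1 (40.7%) were the most AU-rich. BNIP3 (44.8%), BECN1 (46.1%), MAP1LC3B (48.7%), GABARAPL1 (50.1%) and ATG7 (50.8%) lay in the middle, and SQSTM1 (58.0%) and ULK1 (64.2%) were the most GC-rich. These values are for 1 transcript a gene in GENCODE release 29. For BNIP3L, BECN1, SQSTM1 and GABARAPL1 the ratio of 1 culture was recurrent, that is, shared by at least 3 genes of that culture. Small read numbers can produce such values, but the depth is unknown. The cultures were replicate 1 of NC at 20% oxygen for BNIP3L and replicate 2 of NC at 1% oxygen for SQSTM1. In siOCT4 at 20% oxygen they were replicate 1 for BECN1 and replicate 2 for GABARAPL1.

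**Figure D1:**
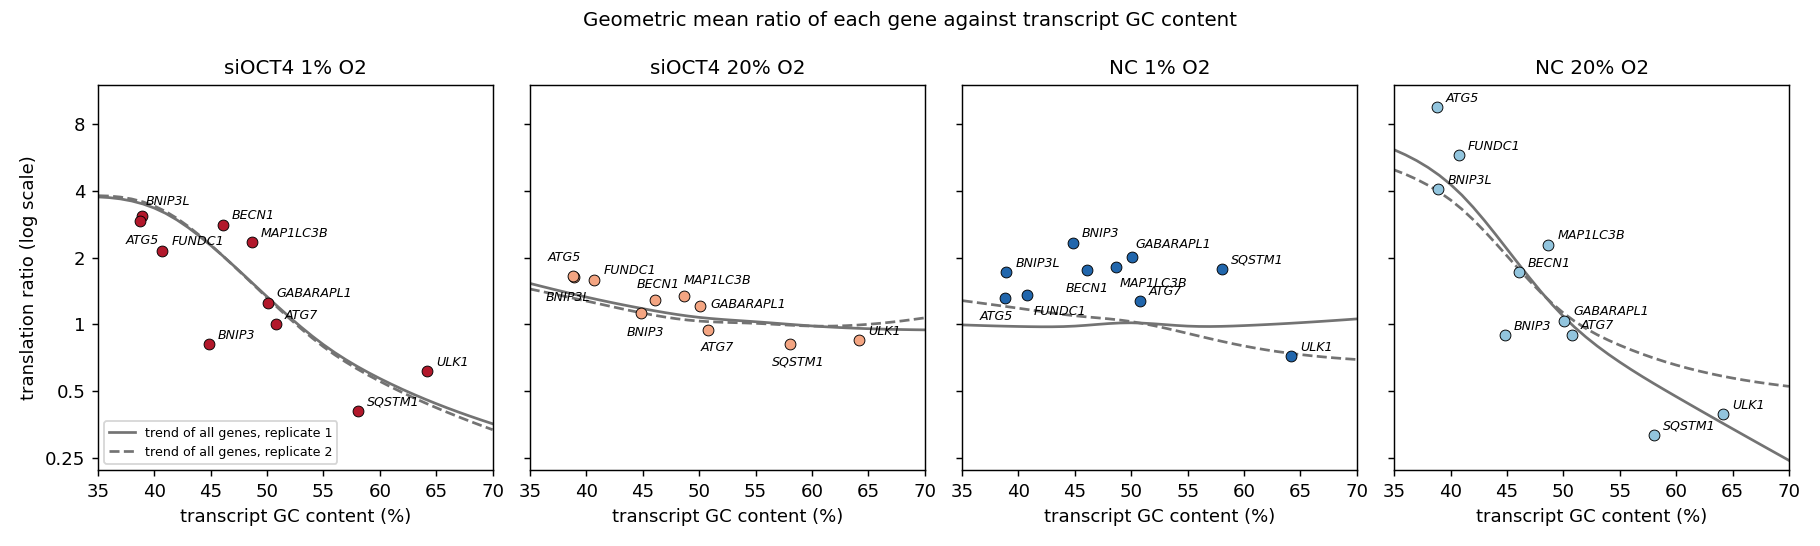
Geometric mean of the translation ratio (log scale) of each gene against the GC content of its transcript (%), 1 panel a group, with the trend of all genes in replicate 1 (solid) and replicate 2 (dashed). In siOCT4 cultures at 1% oxygen and NC cultures at 20% oxygen the curves fall steeply, and BNIP3 and SQSTM1 lie below them; in NC cultures at 1% oxygen both lie above.

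Ribosomes choose a start codon by the bases around it, and the windows below show that stretch for the genes on which the results turn. Each has the 12 bases before the start codon, the start codon in capitals and the 6 bases after it, from GENCODE release 29 on GRCh38. BNIP3, SQSTM1 and GABARAPL1 are shown for the changes at 1% oxygen, and ATG5 and ULK1 as the AU-rich and GC-rich ends of the set.
BNIP3, chr10:131981993-131982013, minus strand: aagtcgcggccaATGggcgac
SQSTM1, chr5:179820925-179820945, plus strand: tcgccgctcgctATGgcgtcg
GABARAPL1, chr12:10213118-10213138, plus strand: ctgcggtgcatcATGaagttc
ATG5, chr6:106316200-106316220, minus strand: actcctggaagaATGacagat
ULK1, chr12:131894990-131895010, plus strand: cccgcctgcgccATGgagccc
A purine 3 bases before the start codon, part of the favourable context, was present in 9 of the 10 genes (90.0%) and in 85.9% of 13923 tested coding genes. BNIP3, with a C at that place before the annotated start used here, was the exception. A G directly after the start codon was present in 6 of 10 (60.0%), against 52.8% of tested coding genes. The 5′ UTR held an upstream ATG in 5 of 10 genes (50%), against 54.5%. MAP1LC3B had 4 of them in a 5′ UTR of 628 bases, ULK1 had 2 in 351 bases, and BECN1, GABARAPL1 and ATG5 had 1 each. BNIP3 had the shortest 5′ UTR of the annotated transcripts, with 12 bases, followed by ATG7 with 25. All these features are for 1 annotated start codon a gene, which for BNIP3 gives a protein of 259 residues. Other start codons were not compared, and which one ribosomes use in these cells was not tested.

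Some reads may not belong to 1 gene. Of all stretches of 50 bases in the BNIP3 transcript, 19.0% also occur in transcripts of other genes, nearly all in the pseudogene BNIP3P1. For MAP1LC3B the share was 10.04%, all shared with MAP1LC3B2, for GABARAPL1 1.63% and for FUNDC1 0.872%; for the other 6 genes it was 0. How reads from these stretches were counted is not known, so the ratios of BNIP3 and MAP1LC3B are uncertain, by an amount that was not tested. MAP1LC3B2 has ratios of its own in the table, while BNIP3P1 is absent from it.

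The receptor BNIP3 had ratios of 0.816 and 0.812 in siOCT4 cultures at 1% oxygen and 1.18 and 1.07 in siOCT4 cultures at 20% oxygen. In NC cells the ratios were 2.39 and 2.28 at 1% oxygen and 0.892 and 0.900 at 20% oxygen. NC cultures at 1% oxygen stood above all other cultures. Among all genes tested in a culture, BNIP3 was at percentiles 96.3 and 96.1 there, against 42.3 and 37.1 in NC cultures at 20% oxygen. In siOCT4 cells it was at percentiles 34.1 and 34.9 at 1% oxygen.

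BNIP3L, the close relative of BNIP3 that clears mitochondria from maturing red cells, had another order. Its ratios were 2.93 and 3.24 in siOCT4 cultures at 1% oxygen and 1.70 and 1.55 in siOCT4 cultures at 20% oxygen. They were 1.61 and 1.84 in NC cultures at 1% oxygen and 3.70 and 4.46 in NC cultures at 20% oxygen. NC cultures at 20% oxygen were highest without overlap. FUNDC1, a receptor regulated by phosphorylation, had ratios of 1.93 and 2.39 in siOCT4 cultures at 1% oxygen and 1.70 and 1.48 in siOCT4 cultures at 20% oxygen. In NC cells they were 1.16 and 1.59 at 1% oxygen and 7.94 and 4.21 at 20% oxygen. The last pair was the highest and also the farthest apart within a group.

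The initiating kinase ULK1 had ratios below 1 in all 8 cultures. They were 0.674 and 0.564 in siOCT4 cultures at 1% oxygen and 0.853 and 0.849 in siOCT4 cultures at 20% oxygen, against 0.757 and 0.682 in NC cultures at 1% oxygen and 0.342 and 0.452 in NC cultures at 20% oxygen. NC cultures at 20% oxygen were lowest, without overlap. BECN1, a subunit of the class III phosphatidylinositol 3-kinase complexes, had ratios of 2.81 and 2.83 in siOCT4 cultures at 1% oxygen and 1.36 and 1.21 in siOCT4 cultures at 20% oxygen. In NC cells they were 1.84 and 1.67 at 1% oxygen and 1.70 and 1.74 at 20% oxygen. BECN1 was highest in siOCT4 cultures at 1% oxygen, and the NC groups overlapped.

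SQSTM1, also called p62, binds ubiquitin-tagged cargo and is itself degraded by autophagy. Its ratios were 0.402 and 0.415 in siOCT4 cultures at 1% oxygen and 0.805 and 0.828 in siOCT4 cultures at 20% oxygen. In NC cells they were 1.94 and 1.61 at 1% oxygen and 0.293 and 0.344 at 20% oxygen. NC cultures at 1% oxygen again stood above all others. Its percentiles among tested genes were 92.8 and 85.8 in NC cultures at 1% oxygen and 7.36 and 3.05 in NC cultures at 20% oxygen.

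The ATG8 proteins coat the forming membrane. MAP1LC3B, the usual marker protein of autophagosomes, had ratios of 2.27 and 2.43 in siOCT4 cultures at 1% oxygen and 1.42 and 1.26 in siOCT4 cultures at 20% oxygen. In NC cells they were 1.68 and 1.97 at 1% oxygen and 2.64 and 1.97 at 20% oxygen. The NC groups met at 1.97 and siOCT4 cultures at 20% oxygen were lowest. Its copy MAP1LC3B2 had ratios of 2.33 and 2.03 in siOCT4 cultures at 1% oxygen and 1.51 and 1.39 in siOCT4 cultures at 20% oxygen. In NC cells this copy had 1.32 and 1.93 at 1% oxygen and 1.76 and 1.46 at 20% oxygen. GABARAPL1, of the other branch of the family, had ratios of 1.28 and 1.23 in siOCT4 cultures at 1% oxygen and 1.12 and 1.30 in siOCT4 cultures at 20% oxygen. In NC cells they were 2.28 and 1.77 at 1% oxygen and 0.895 and 1.21 at 20% oxygen. NC cultures at 1% oxygen were highest, and siOCT4 cultures at 20% oxygen overlapped both remaining groups.

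ATG5 is joined to ATG12 to form part of the enzyme that lipidates ATG8 proteins. Its ratios were 2.60 and 3.31 in siOCT4 cultures at 1% oxygen and 1.60 and 1.71 in siOCT4 cultures at 20% oxygen. In NC cells they were 1.19 and 1.46 at 1% oxygen and 9.85 and 9.15 at 20% oxygen. The last pair held the highest ratios of the set in any culture. No 2 groups overlapped. ATG7, the activating enzyme of both conjugation reactions, varied least. Its ratios were 1.01 and 0.990 in siOCT4 cultures at 1% oxygen and 0.990 and 0.904 in siOCT4 cultures at 20% oxygen. In NC cells they were 1.37 and 1.19 at 1% oxygen and 0.988 and 0.813 at 20% oxygen. NC cultures at 1% oxygen stood slightly above the other 6 cultures, which lay close to 1.

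**Figure D2:**
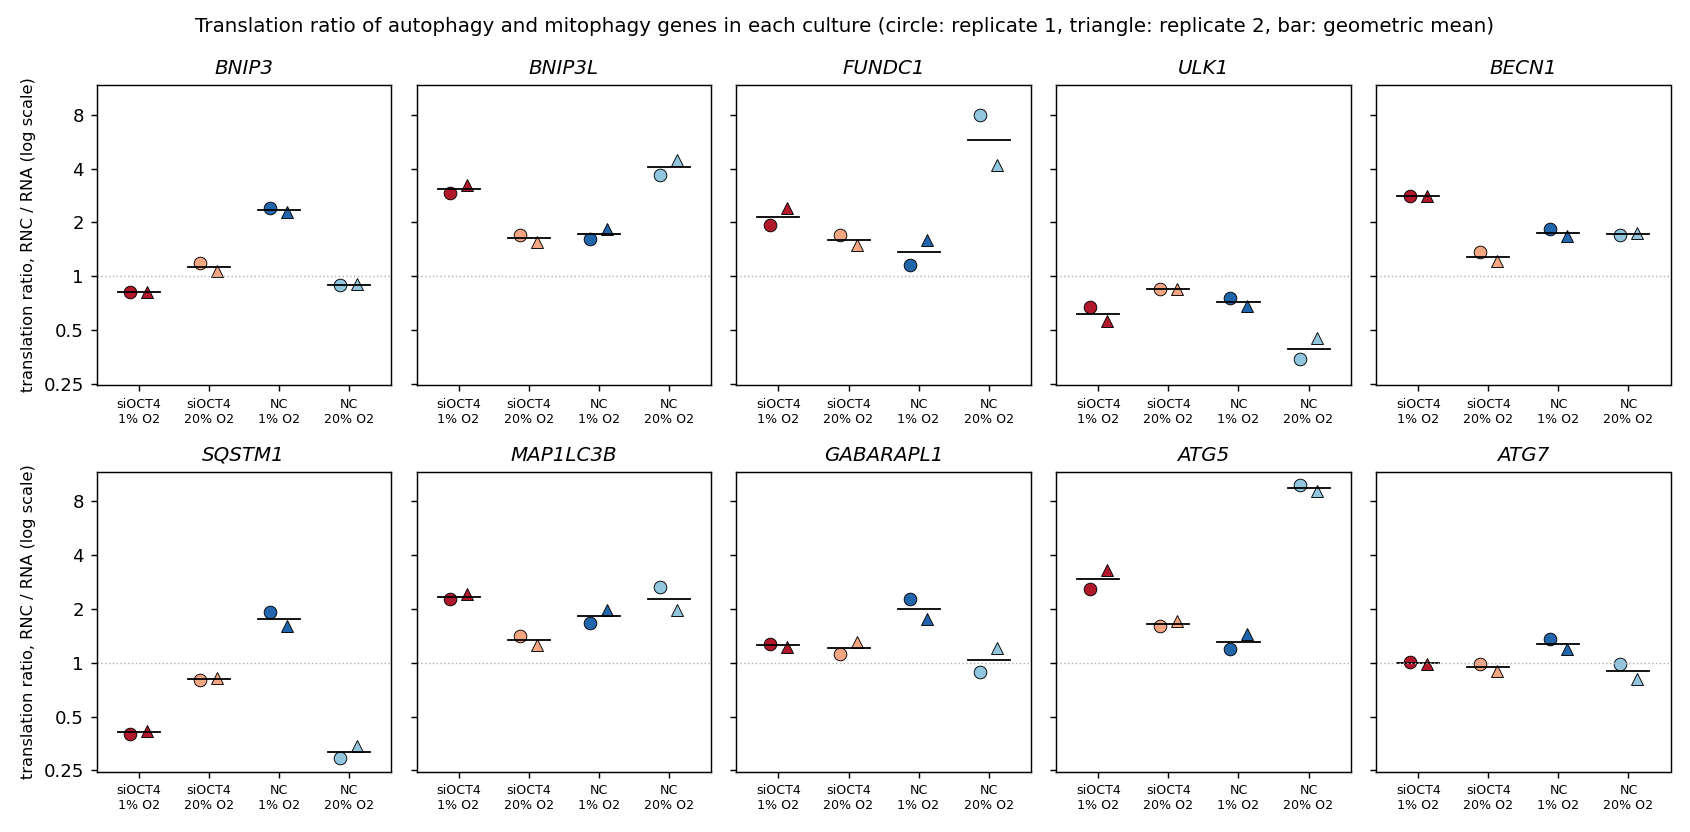
Translation ratio (RNC over RNA, log scale) of the 10 genes in the 2 cultures of each group (circle: replicate 1, triangle: replicate 2, bar: geometric mean). BNIP3, SQSTM1 and GABARAPL1 are highest in NC cultures at 1% oxygen, and BNIP3L, FUNDC1 and ATG5 in NC cultures at 20% oxygen.

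Neighbours in the order of levels could not always be told apart. For BNIP3, NC cultures at 1% oxygen differed from the next group, siOCT4 cultures at 20% oxygen (limma adjusted p = 0.0112), while neighbours among the lower 3 groups were not separated (adjusted p = 0.0618 and 0.440). For SQSTM1 the top 3 groups were separated, with adjusted p = 0.0205 and 0.00472, and the lowest pair, siOCT4 cultures at 1% oxygen and NC cultures at 20% oxygen, was not (0.186). For ATG5 NC cultures at 20% oxygen and siOCT4 cultures at 1% oxygen differed (0.00499), as did siOCT4 cultures at 1% and at 20% oxygen (0.0110). No neighbouring groups of ULK1, MAP1LC3B or ATG7 passed the threshold.

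The first comparison was siOCT4 with NC at 20% oxygen. SQSTM1 and ULK1 rose, while BNIP3L, FUNDC1, BECN1, MAP1LC3B and ATG5 fell. This made 2 genes higher and 5 lower, against 19.2% and 34.1% of all genes tested. The median log2 difference was -0.17 for the 10 genes and -0.086 for all genes, and with each culture centred on its median 3 were higher and 4 lower. Here and below, the share of all genes called after centring is not given. Counts after centring are therefore not a result about the 10 genes. ATG5 showed the largest log2 difference, -2.52 ± 0.19 (SE), a ratio 5.74-fold lower in siOCT4 cells (limma adjusted p = 0.000653). FUNDC1 fell by 1.86 ± 0.34 (adjusted p = 0.00589) and BNIP3L by 1.32 ± 0.16 (0.00148). These 3 are the most AU-rich genes of the set. SQSTM1, by contrast, was 2.57-fold higher, a log2 difference of 1.36 ± 0.18 (adjusted p = 0.00178), and ULK1 2.16-fold higher, 1.11 ± 0.21 (0.00698). The smaller differences of MAP1LC3B, -0.77 ± 0.19 (adjusted p = 0.0172), and BECN1, -0.42 ± 0.13 (0.0364), lost their call when some cultures were left out (up to 0.0978 and 0.196). BNIP3 (log2 difference 0.33 ± 0.12, adjusted p = 0.0618), GABARAPL1 (0.22 ± 0.21, 0.411) and ATG7 (0.077 ± 0.16, 0.693) did not pass.

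After GC correction 2 genes were higher and 1 lower in siOCT4 cultures at 20% oxygen, against 7.17% and 7.46% of all genes with a GC content. BNIP3 was 2.36-fold higher, a corrected log2 difference of 1.24 ± 0.12 (limma adjusted p = 0.0138), and SQSTM1 1.59-fold higher, 0.67 ± 0.10 (0.0198). ATG5 was lower, with -0.81 ± 0.15 (0.0262). BNIP3L turned from a fall to a value above 0, 0.38 ± 0.18 (adjusted p = 0.213), and ULK1 came to 0.017 ± 0.16 (0.956). Without replicate 1 or without replicate 2 of siOCT4 at 20% oxygen, none of these calls was kept, and nearly all calls of the whole table were lost as well.

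At 1% oxygen, siOCT4 cells and NC cells differed most, among the 10 genes, in the cargo receptor SQSTM1 and the mitophagy receptor BNIP3, both lower after siOCT4. Of the 10 genes 3 rose (BNIP3L, BECN1 and ATG5) and 3 fell (BNIP3, SQSTM1 and GABARAPL1), against 41.1% and 19.9% of all genes. The median log2 difference was 0.073 for the 10 genes and 0.42 for all genes. Centring, which also moves the calls of all genes by a share not given here, gave 2 higher and 5 lower. The SQSTM1 ratio was 4.33-fold lower in siOCT4 cells, a log2 difference of -2.11 ± 0.18 (limma adjusted p = 0.000366). The BNIP3 ratio was 2.87-fold lower, -1.52 ± 0.12 (0.000329). Both calls held without any one of the 8 cultures. GABARAPL1 was 1.61-fold lower, -0.68 ± 0.21 (adjusted p = 0.0313), a call lost in 4 of 8 such fits (up to 0.146). ATG5 was 2.23-fold higher, 1.16 ± 0.19 (adjusted p = 0.00280), with BNIP3L at 0.84 ± 0.16 (0.00589) and BECN1 at 0.68 ± 0.13 (0.00531). FUNDC1 (0.66 ± 0.34, adjusted p = 0.137), MAP1LC3B (0.37 ± 0.19, 0.139), ULK1 (-0.22 ± 0.21, 0.399) and ATG7 (-0.35 ± 0.16, 0.0928) did not pass.

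With the GC trend taken out, 1 gene was higher and 7 were lower in siOCT4 cultures at 1% oxygen, against 21.7% and 22.5% of all genes. The corrected median was -0.74 for the 10 genes and -0.016 for all genes. BNIP3 was 6.42-fold lower, a corrected log2 difference of -2.68 ± 0.12 (limma adjusted p = 0.000985), and SQSTM1 3.04-fold lower, -1.60 ± 0.10 (0.000985). GABARAPL1 was 2.07-fold lower, -1.05 ± 0.20 (0.00929). The other 4 lower genes were FUNDC1 (-0.95 ± 0.25), BNIP3L (-0.86 ± 0.18), ATG7 (-0.62 ± 0.15) and ATG5 (-0.55 ± 0.15). So BNIP3L and ATG5, called higher as deposited, were called lower once corrected. ULK1 was the gene called higher, 0.73 ± 0.16 (adjusted p = 0.0156). Adding transcript length to the correction ended the calls of ULK1 (limma adjusted p = 0.124) and FUNDC1 (0.328). Fewer of the 10 genes were called without replicate 1 of NC at 1% oxygen or replicate 1 of siOCT4 at 1% oxygen. The share of all genes called also moved between such fits, as given below. BNIP3, SQSTM1 and GABARAPL1 stayed past the threshold without any one culture.

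The third comparison, 1% with 20% oxygen in NC cells, shares the NC cultures at 1% oxygen with the one just given. SQSTM1, BNIP3, GABARAPL1, ULK1 and ATG7 rose at 1% oxygen and ATG5, FUNDC1 and BNIP3L fell. This was 5 higher and 3 lower, against 20.5% and 39.6% of all genes, with a median log2 difference of 0.27 for the 10 genes and -0.31 for all. SQSTM1 was 5.57-fold higher at 1% oxygen, a log2 difference of 2.48 ± 0.18 (limma adjusted p = 0.000196), a rise larger than that of 98.0% of tested genes. BNIP3 was 2.61-fold higher, 1.38 ± 0.12 (0.000308), GABARAPL1 1.93-fold, 0.95 ± 0.21 (0.00954), and ULK1 1.83-fold, 0.87 ± 0.21 (0.0139). ATG7 rose by 0.51 ± 0.16 (adjusted p = 0.0309), a call lost in 6 of the 8 fits without 1 culture (up to 0.131). On the other side, ATG5 was 7.22-fold lower at 1% oxygen, -2.85 ± 0.19 (adjusted p = 0.000164), FUNDC1 4.26-fold, -2.09 ± 0.34 (0.00284), and BNIP3L 2.36-fold, -1.24 ± 0.16 (0.00125). BECN1 (0.028 ± 0.13, adjusted p = 0.866) and MAP1LC3B (-0.33 ± 0.19, 0.180) did not pass. Without replicate 1 of NC at 1% oxygen the calls of ULK1 and GABARAPL1 were lost with that of ATG7. The share of all genes called also moved between such fits, as given below.

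GC corrected, 6 genes were higher and 1 was lower at 1% oxygen in NC cells, against 23% and 23.1% of all genes. The corrected median was 0.64 for the 10 genes and 0.012 for all. BNIP3 was 5.45-fold higher, a corrected log2 difference of 2.45 ± 0.12 (limma adjusted p = 0.000371), and SQSTM1 3.79-fold higher, 1.92 ± 0.10 (0.000416). GABARAPL1 (1.05 ± 0.20), BECN1 (0.84 ± 0.13), BNIP3L (0.76 ± 0.18) and ATG7 (0.52 ± 0.15) were also higher. BNIP3L thus changed sides, and ATG5 remained lower, at -0.84 ± 0.15 (adjusted p = 0.00694). The fall of FUNDC1 and the rise of ULK1 came to corrected values of -0.31 ± 0.25 (adjusted p = 0.345) and -0.052 ± 0.16 (0.816). BNIP3, BECN1, SQSTM1, GABARAPL1 and ATG5 stayed past the threshold without any one culture.

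In siOCT4 cells, the ratios of SQSTM1 and BNIP3 were lower at 1% than at 20% oxygen as deposited. Those of BECN1, BNIP3L, ATG5 and MAP1LC3B were higher. These 4 higher and 2 lower genes stood against 37.4% and 21.6% of all genes, and the median log2 difference was 0.26 for the 10 genes and 0.27 for all. Centring gave 3 higher and 3 lower, again without the share of all genes. SQSTM1 was 2.00-fold lower at 1% oxygen, a log2 difference of -0.999 ± 0.18 (limma adjusted p = 0.00472), and BNIP3 1.38-fold lower, -0.47 ± 0.12 (0.0183). BECN1 was 2.20-fold higher, 1.13 ± 0.13 (0.00108), BNIP3L 1.89-fold higher, 0.92 ± 0.16 (0.00460), ATG5 0.83 ± 0.19 (0.0110) and MAP1LC3B 0.81 ± 0.19 (0.0125). FUNDC1 (0.44 ± 0.34, adjusted p = 0.303), ULK1 (-0.46 ± 0.21, 0.105), GABARAPL1 (0.052 ± 0.21, 0.844) and ATG7 (0.078 ± 0.16, 0.686) did not pass. Without replicate 2 of siOCT4 at 1% oxygen, or replicate 2 of siOCT4 at 20% oxygen, fewer of the 10 genes were called. The share of all genes called also moved between such fits, as given below. The BNIP3 call was lost in 4 of 8 fits without 1 culture (up to 0.113, without replicate 1 of siOCT4 at 20% oxygen), that of ATG5 in 3 (up to 0.0712) and that of MAP1LC3B in 2 (up to 0.0756).

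Corrected for GC, 1 gene was higher and 4 were lower at 1% oxygen in siOCT4 cells, against 18.9% and 17.9% of all genes. BNIP3 was 2.78-fold lower, a corrected log2 difference of -1.47 ± 0.12 (limma adjusted p = 0.00279), and SQSTM1 1.28-fold lower, -0.35 ± 0.10 (0.0411). FUNDC1 (-0.91 ± 0.25, 0.0356) and ATG5 (-0.58 ± 0.15, 0.0303) were lower and ULK1 higher (0.66 ± 0.16, 0.0261). So BECN1, BNIP3L, ATG5 and MAP1LC3B, called higher as deposited, were not called higher once corrected. BECN1 came to 0.28 ± 0.13 (limma adjusted p = 0.153), MAP1LC3B to 0.29 ± 0.21 (0.310) and BNIP3L to -0.48 ± 0.18 (0.0919). The BNIP3 call was made without any one culture, that of SQSTM1 was lost in 6 of 8 such fits (up to 0.186), and the corrected count fell to 1 without replicate 1 of siOCT4 at 1% oxygen or either replicate of siOCT4 at 20% oxygen. It was 2 without replicate 2 of siOCT4 at 1% oxygen or either replicate of NC at 1% oxygen. With length in the correction, FUNDC1 (limma adjusted p = 0.505), ULK1 (0.292) and ATG5 (0.0552) did not pass and BECN1 did (0.0361).

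The interaction tests whether the response to 1% oxygen differed between siOCT4 and NC cells. It was past the threshold for 9 of the 10 genes as deposited, 5 higher in siOCT4 cells and 4 lower, against 42.5% and 26.2% of all genes. The median was 0.34 for the 10 genes and 0.49 for all genes, and centring gave 4 higher and 5 lower, again without the share of all genes. The change of SQSTM1 at 1% oxygen was 11.1-fold lower in siOCT4 cells than in NC cells, a log2 difference of changes of -3.48 ± 0.25 (limma adjusted p = 0.000110). BNIP3 followed with -1.85 ± 0.17 (0.000235), ULK1 with -1.33 ± 0.30 (0.00845) and GABARAPL1 with -0.90 ± 0.30 (0.0356). The GABARAPL1 call was lost in 6 of 8 fits without 1 culture (up to 0.109). ATG5 (3.68 ± 0.26, adjusted p = 0.000105), FUNDC1 (2.53 ± 0.48, 0.00426), BNIP3L (2.16 ± 0.23, 0.000411), MAP1LC3B (1.14 ± 0.27, 0.0101) and BECN1 (1.11 ± 0.18, 0.00245) had the positive interactions. ATG7 did not pass (-0.43 ± 0.22, 0.127).

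After correction the interaction of 5 genes was past the threshold, all of them negative, where 22.3% of all genes had a positive and 21.3% a negative one. BNIP3 led with -3.92 ± 0.17 (limma adjusted p = 0.000925), then SQSTM1 with -2.28 ± 0.14 (0.000925), GABARAPL1 with -1.32 ± 0.28 (0.0139), BNIP3L with -1.24 ± 0.26 (0.0130) and ATG7 with -0.66 ± 0.21 (0.0483). ATG5, the largest positive interaction as deposited, came to 0.26 ± 0.21 (adjusted p = 0.357), and BNIP3L reversed. BNIP3, BNIP3L and SQSTM1 were called without any one culture, while the corrected count fell to 3 without replicate 2 of siOCT4 at 20% oxygen.

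**Figure D3:**
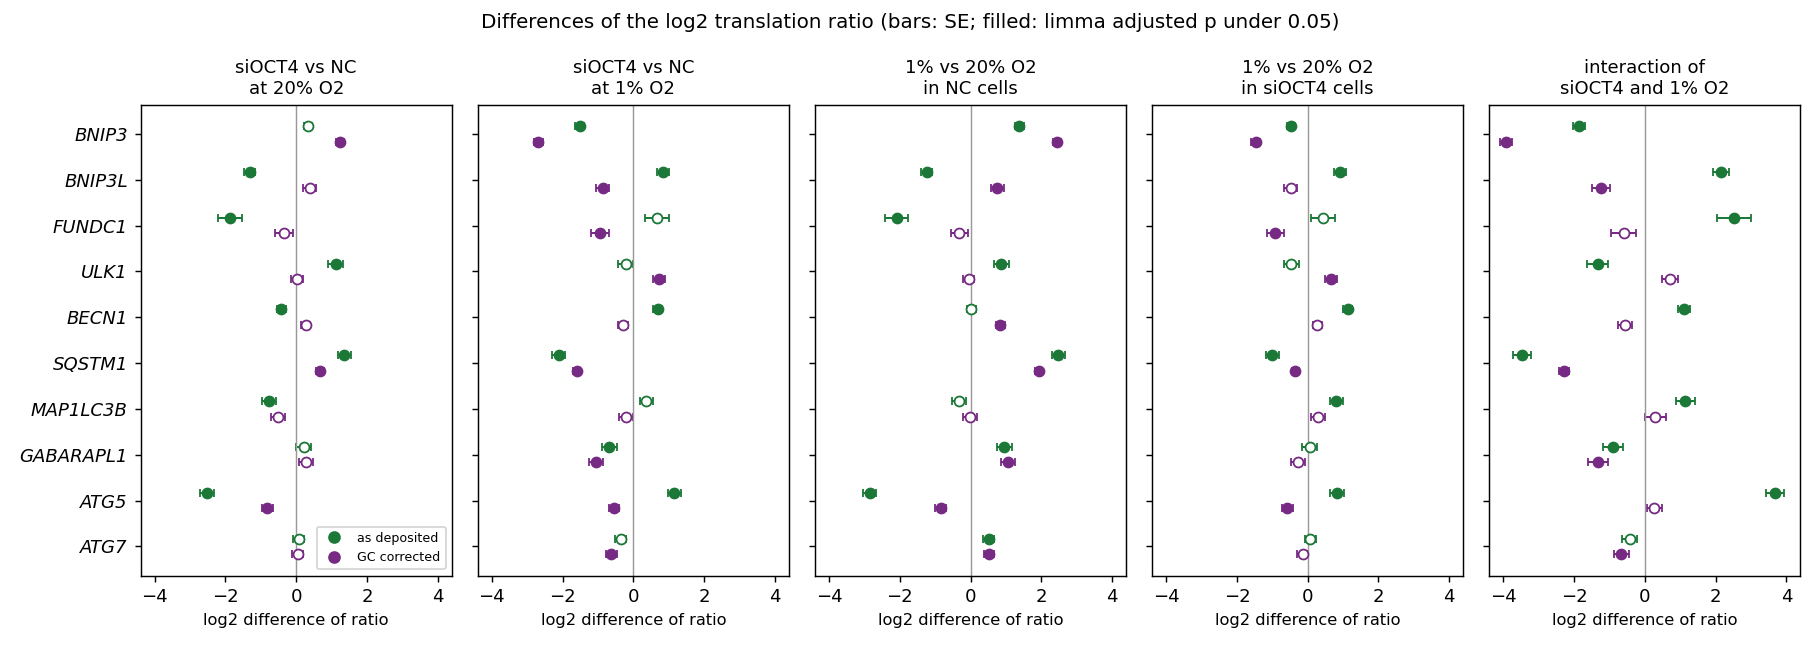
Log2 differences of the translation ratio for the 10 genes in the 5 comparisons, as deposited (green) and GC corrected (purple); bars are SE, and filled points have a limma adjusted p under 0.05. SQSTM1 points lie on the same side of 0 as deposited and corrected in every panel, as do those of BNIP3, while BNIP3L points change sides in every panel.

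The per-culture distance to the GC trend shows the same genes without a model of groups. BNIP3 lay at 0.353 and 0.349 times the ratio of genes with its GC content in siOCT4 cultures at 1% oxygen. It lay at 1.00 and 0.949 times the trend in siOCT4 cultures at 20% oxygen, 2.44 and 2.08 times in NC cultures at 1% oxygen and 0.396 and 0.431 times in NC cultures at 20% oxygen. The raw ratio of BNIP3 differed little between siOCT4 cultures at 1% oxygen and NC cultures at 20% oxygen, and in both it was below the trend, which stood at 2.31 and 2.33 in siOCT4 cultures at 1% oxygen and 2.25 and 2.09 in NC cultures at 20% oxygen.

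SQSTM1 lay at 0.624 and 0.662 times the trend in siOCT4 cultures at 1% oxygen and 0.805 and 0.835 times in siOCT4 cultures at 20% oxygen. In NC cells it lay at 1.98 and 1.93 times at 1% oxygen and 0.542 and 0.489 times at 20% oxygen. So SQSTM1 was above the ratio of genes of like composition in NC cultures at 1% oxygen and below it in the other 6 cultures. GABARAPL1 lay at 2.25 and 1.72 times the trend in NC cultures at 1% oxygen and between 0.831 and 1.26 times it in the other 6 cultures.

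MAP1LC3B was above the trend in all 8 cultures, between 1.20 and 2.06 times. ATG5 was at 2.06 and 2.28 times the trend in NC cultures at 20% oxygen and from 0.741 to 1.30 times it elsewhere. ULK1 was above the trend in both siOCT4 cultures at 1% oxygen (1.48 and 1.28 times) and below it in the other 6. BECN1 was above it in all groups except NC cultures at 20% oxygen (0.915 and 0.982 times).

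**Figure D4:**
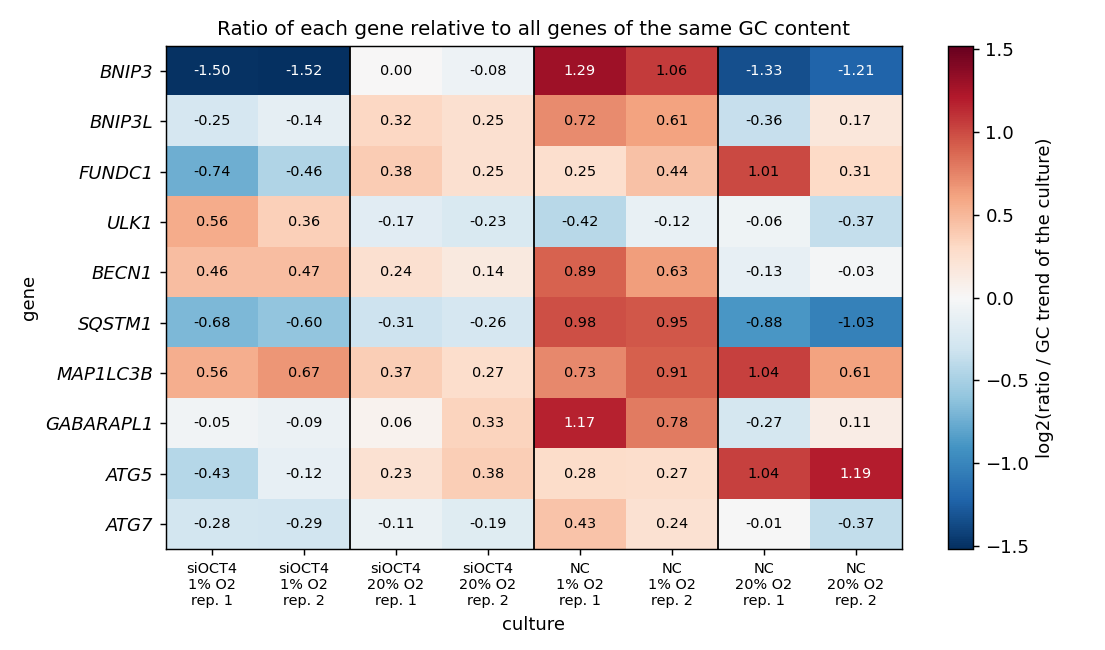
Log2 of the ratio over the GC trend of the same culture for each gene (rows) in each culture (columns); red is above and blue below genes of the same GC content. BNIP3 runs from -1.52 in siOCT4 cultures at 1% oxygen to 1.29 in NC cultures at 1% oxygen, and MAP1LC3B is positive in all 8 columns.

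A wider list held 99 symbols of the pathway. The 96 genes of it that the table holds, the 10 included, were all tested, and the other 3 symbols were older names of genes already among them. It covers initiation, membrane growth, conjugation, receptors, mitophagy, fusion with the lysosome and upstream kinases. As deposited, 32 (33.3%) were higher and 37 (38.5%) lower in siOCT4 cells than in NC cultures at 20% oxygen, where all genes had 19.2% and 34.1%. At 1% oxygen 36 (37.5%) were higher and 37 (38.5%) lower, where all genes had 41.1% and 19.9%. In NC cultures at 1% against 20% oxygen 38 (39.6%) were higher and 31 (32.3%) lower, against 20.5% and 39.6% of all genes. In siOCT4 cells 40 (41.7%) were higher and 28 (29.2%) lower, against 37.4% and 21.6%. The interaction was positive for 43 (44.8%) and negative for 39 (40.6%), against 42.5% and 26.2%. The share of higher genes was thus close to that of all genes for siOCT4 against NC at 1% oxygen, for 1% oxygen in siOCT4 cells and for the interaction, and the share of lower genes for siOCT4 against NC at 20% oxygen.

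GC corrected, the list had more genes on one side than on the other in each of the 5 comparisons. The gap in number of genes was widest in 3 of them, given first. In siOCT4 against NC cultures at 1% oxygen 12 genes were higher and 39 lower (12.5% and 40.6%, where all genes had 21.7% and 22.5%), with a median log2 difference of -0.32 against -0.016 for all genes. In NC cultures at 1% against 20% oxygen 44 were higher and 13 lower (45.8% and 13.5%, where all genes had 23% and 23.1%), with a median of 0.34 against 0.012. Without the 10 genes the counts over the other 86 were 11 and 32, and 38 and 12. The interaction was positive for 13 and negative for 38 of the 96 (13.5% and 39.6%, against 22.3% and 21.3%). These 3 comparisons share the NC cultures at 1% oxygen. For siOCT4 against NC at 20% oxygen the corrected list gave 9 higher and 3 lower (9.38% and 3.12%, against 7.17% and 7.46%). In siOCT4 cultures at 1% against 20% oxygen it gave 18 higher and 27 lower (18.8% and 28.1%, against 18.9% and 17.9%).

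By role, the corrected difference of siOCT4 from NC cultures at 1% oxygen is set here against 21.7% of all genes higher and 22.5% lower. Of the 14 mitophagy receptors and PINK1 pathway genes, 0 were higher and 9 lower (64.3%). Of the 7 ATG8 family genes 0 were higher and 4 lower (57.1%), and of the 10 conjugation genes 0 were higher and 5 lower (50%). Of 9 genes of the ATG9, ATG2 and WIPI group 1 was higher and 4 lower, of 22 genes of fusion and the lysosome 2 were higher and 9 lower, and of 9 upstream kinase genes 1 was higher and 3 lower. The remaining groups did not lean that way. The class III kinase complexes, to which BECN1 belongs, had 3 of 8 genes higher and 1 lower, the cargo receptors 3 of 12 higher and 2 lower, and the ULK1 complex 2 of 5 in each direction.

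For 1% against 20% oxygen in NC cells, where 23% of all genes were higher and 23.1% lower after correction, fusion and the lysosome had 12 of 22 genes higher (54.5%) and 0 lower. The cargo receptors had 6 of 12 higher and 3 lower, the upstream kinases 5 of 9 higher and 1 lower, and the mitophagy receptors and PINK1 pathway 5 of 14 higher and 2 lower. The class III kinase complexes had 4 of 8 higher and 2 lower, the ATG9, ATG2 and WIPI group 4 of 9 higher and 1 lower, and conjugation 4 of 10 higher and 2 lower. The ATG8 family had 3 of 7 higher and 1 lower, and the ULK1 complex 1 of 5 in each direction. No group was tested as a whole.

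**Figure D5:**
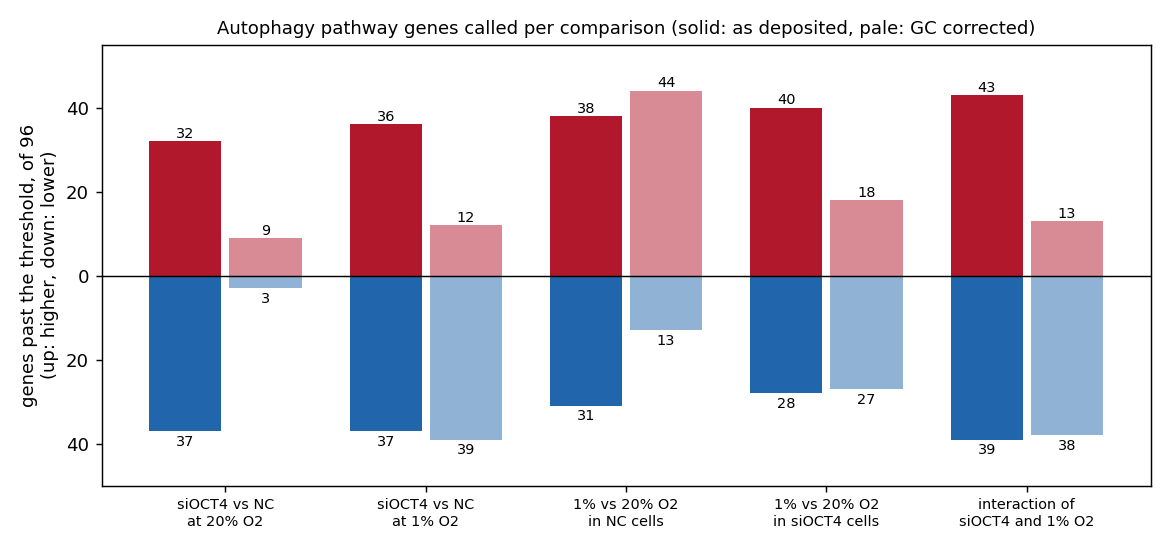
Number of the 96 listed autophagy genes past the threshold in each comparison, higher (up, red) and lower (down, blue), as deposited (solid) and GC corrected (pale). The corrected bars lean down for siOCT4 against NC at 1% oxygen (12 up, 39 down) and up for 1% against 20% oxygen in NC cells (44 up, 13 down).

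Of the listed genes outside the 10 and with no recurrent ratio, the 3 with the largest change in each direction are named for each comparison. RB1CC1, the scaffold of the ULK1 complex, was higher in siOCT4 cells than in NC cultures at 1% oxygen, a log2 difference of 3.36 ± 0.23 (limma adjusted p = 0.000305), and 1.62 GC corrected (0.000985). PIK3R4, the regulatory subunit of the BECN1 complexes, was higher by 2.68 ± 0.16 (0.000303), and 1.39 corrected (0.00118). WDFY3, a large adaptor for protein aggregates, was higher by 2.50 ± 0.22 and 1.21 corrected. On the lower side stood ATG4D (-2.09 ± 0.25, corrected -1.10), a protease that trims ATG8 proteins, the mitophagy receptor FKBP8 (-1.98 ± 0.32, corrected -0.88) and the lysosomal protease CTSD (-1.84 ± 0.29, corrected -0.90). All 6 kept their direction and call when corrected.

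For 1% against 20% oxygen in NC cells, the 6 genes so named (limma adjusted p from 0.000163 to 0.00119, corrected from 0.000497 to 0.0446) were 3 of the 33 higher and 3 of the 28 lower genes outside the 10. The higher ones were PRKAB1, a subunit of the energy sensor AMPK (2.30 ± 0.16, corrected 2.00), RPTOR of the mTORC1 complex (1.69 ± 0.22, corrected 1.03) and AMBRA1, a regulator of BECN1 (1.65 ± 0.21, corrected 1.27). The lower ones were RB1CC1 (-2.86 ± 0.23, corrected -0.73), the kinase TBK1 (-2.79 ± 0.34, corrected -0.83) and the cargo receptor TAX1BP1 (-2.65 ± 0.17, corrected -0.68). For 1% against 20% oxygen in siOCT4 cells, they were 3 of 36 higher and 3 of 26 lower genes (limma adjusted p from 0.000683 to 0.00509). Higher were PIK3C3, the catalytic subunit of the BECN1 complexes (2.50 ± 0.23, corrected 1.09), PIK3R4 (2.33 ± 0.16, corrected 1.22) and EPG5, a tether of autophagosomes (2.30 ± 0.19, corrected 1.48). Lower were TEX264 (-1.80 ± 0.21), a receptor for the endoplasmic reticulum whose corrected value did not pass (limma adjusted p = 0.0893), FKBP8 (-1.77 ± 0.32, corrected -0.47) and ATG4D (-1.71 ± 0.25, corrected -0.54). For siOCT4 against NC at 20% oxygen, the 6 genes so named (limma adjusted p from 0.000653 to 0.0372) were, on the higher side, ATG2A (1.42 ± 0.23), STK11 (1.32 ± 0.41) and ATG4D (1.23 ± 0.25) and, on the lower side, TBK1 (-2.46 ± 0.34), SEC62 (-2.20 ± 0.18) and TAX1BP1 (-2.16 ± 0.17). Of these, TAX1BP1 alone passed when corrected (-0.49, limma adjusted p = 0.0429).

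The largest interactions outside the 10, again among listed genes with no recurrent ratio, were those of TBK1 (4.73 ± 0.49, corrected 1.37), RB1CC1 (4.33 ± 0.32, corrected 0.80) and TAX1BP1 (4.32 ± 0.24, corrected 0.96), which were positive. ATG4D (-3.32 ± 0.36, corrected -1.20), FKBP8 (-3.11 ± 0.46, corrected -0.75) and CTSD (-3.04 ± 0.41, corrected -1.02) had negative ones. All 6 passed in both forms (limma adjusted p from 8.04e-05 to 0.00151, corrected from 0.00334 to 0.0286).

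The genes whose 8 ratios ran closest to those of BNIP3, by distance between centred log2 ratios over 8105 others, were MICB, DENND2A, MT1G, XBP1 and EIF1, with distances from 0.448 to 0.535. Those closest to SQSTM1 were PHGDH, COL2A1, RGS16, LMNA and MAD1L1, from 0.327 to 0.388. The values share the same 8 cultures and the same GC trends, and are a description.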

How the data were processed

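Total RNA and RNC-bound RNA were sequenced in H9 cells, in 4 groups of 2 cultures. The deposited table gives 1 translation ratio per gene and culture, which the authors made as RNC over RNA, per the series title and file headers. The submitters' processing notes name edgeR and the genome build hg19, in roles not given in the sources used here, as are the mapper, annotation and filters. The columns marked sO were read as siOCT4.

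The 15864 genes with a ratio in all 8 cultures were fitted on the log2 scale with limma 3.58.1 (trend and robust, statmod 1.5.0, R 4.3.3), as 4 group means, leaving 4 residual degrees of freedom. The planned test for counts had no counts to use. P-values were two-sided and adjusted by the Benjamini-Hochberg method over every tested gene, at a threshold of 0.05. The fit was tested on simulated data in which the GC trend did not differ between groups. That test does not cover the differing trends of the data here. GC content, length and sequences came from GENCODE release 29 on GRCh38, matched by symbol for 26100 genes. A natural spline with 6 degrees of freedom on GC content was fitted per culture over 15396 tested genes (97.05%), and its residuals were tested the same way. A ratio was called recurrent where at least 3 genes of a culture had it, to a relative tolerance of 2e-06. Figures used Python 3.11.15, numpy 2.4.6, pandas 2.3.3 and matplotlib 3.10.9.

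The 10 genes are all named. Other listed genes are named as the 3 per direction and comparison with the largest change past the threshold and no recurrent ratio. Likeness was the Euclidean distance of centred log2 ratios, over genes with no recurrent ratio. The genes and lists were chosen with earlier results of these data known. Alternatives were a replicate block, column centring, a pseudocount of 0.1, other limma options, GC and length correction, genes with no recurrent ratio, and left-out cultures.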

Additional observations from a re-analysis of the deposited data

Results flagged for a closer look

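For 9 of the 10 genes the response to 1% against 20% oxygen differed between siOCT4 and NC cells, by the limma interaction test at an adjusted p under 0.05. As log2 differences, siOCT4 minus NC response, these were -1.85 for BNIP3, 2.16 for BNIP3L, 2.53 for FUNDC1, -1.335 for ULK1 and 1.11 for BECN1. They were -3.48 for SQSTM1, 1.14 for MAP1LC3B, -0.90 for GABARAPL1 and 3.68 for ATG5. Among all tested genes 42.5% had a positive and 26.2% a negative interaction past the threshold. BNIP3, SQSTM1 and GABARAPL1 kept sign and call with GC correction. BNIP3L kept a call with the sign changed, and FUNDC1, ULK1, BECN1, MAP1LC3B and ATG5 did not pass.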

How the results depend on the processing

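With 2 cultures a group and no counts, the precision rests on the spread between cultures alone, and depth cannot be weighed. Of the 50 changes (10 genes in 5 comparisons), 50 kept their side of the threshold without limma's trend and robust options, which cannot alter a direction. With a pseudocount of 0.1, 50 kept direction and side of the threshold. Base composition mattered most: with GC correction 20 of 50 changed sign, 8 kept direction but lost their call and 4 gained one. The values that changed sign are log2 differences; for siOCT4 against NC at 20% oxygen they were BNIP3L 0.38, BECN1 0.27. For siOCT4 against NC at 1% oxygen they were BNIP3L -0.86, FUNDC1 -0.95, ULK1 0.73, BECN1 -0.29, MAP1LC3B -0.21, ATG5 -0.55. For 1% against 20% oxygen in NC cells they were BNIP3L 0.76, ULK1 -0.052. For 1% against 20% oxygen in siOCT4 cells they were BNIP3L -0.48, FUNDC1 -0.91, ULK1 0.66, GABARAPL1 -0.27, ATG5 -0.58, ATG7 -0.14. For the interaction they were BNIP3L -1.24, FUNDC1 -0.60, ULK1 0.71, BECN1 -0.56. With the replicate block added to the GC correction the same values resulted, as they must when each group holds both replicate numbers. With length corrected as well they were BNIP3L 0.41, BECN1 0.26 for siOCT4 against NC at 20% oxygen. They were BNIP3L -0.84, FUNDC1 -0.35, ULK1 0.34, BECN1 -0.094, MAP1LC3B -0.18, ATG5 -0.48 for siOCT4 against NC at 1% oxygen, and BNIP3L 0.79, ULK1 -0.071 for 1% against 20% oxygen in NC cells. They were BNIP3L -0.45, FUNDC1 -0.25, ULK1 0.23, GABARAPL1 -0.052, ATG5 -0.48, ATG7 -0.44 for 1% against 20% oxygen in siOCT4 cells, and BNIP3L -1.24, FUNDC1 -0.026, ULK1 0.30, BECN1 -0.35 for the interaction. With each culture centred on its median, MAP1LC3B changed sign for siOCT4 against NC at 1% oxygen (-0.014), as did GABARAPL1 (-0.21) and ATG7 (-0.18) for 1% against 20% oxygen in siOCT4 cells.

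Counts of genes called moved as follows, in the order siOCT4 against NC at 20% and at 1% oxygen, 1% against 20% oxygen in NC and in siOCT4 cells, and interaction, with the percentage of all tested genes called in the same order. They were 7, 6, 8, 6 and 9 as reported (53.3%, 61.0%, 60.2%, 59.0% and 68.7%), 3, 8, 7, 5 and 5 with GC correction (14.6%, 44.2%, 46.2%, 36.8% and 43.6%), and 3, 6, 7, 3 and 5 with GC and length corrected (15.9%, 40.7%, 47.0%, 29.3% and 42.2%). Restricted to genes with no recurrent ratio, 6 of the 10 were tested, and 5, 3, 5, 3 and 5 were called (77.4%, 79.4%, 77.1%, 80.2% and 85.0%). Leaving out 1 culture at a time, with a lone culture assumed to vary like the other groups, gave 5 to 7, 5 to 7, 5 to 8, 3 to 7 and 8 to 9 (31.9% to 58.3%, 47.0% to 64.9%, 47.1% to 61.2%, 39.9% to 63.5% and 60.3% to 70.6%). The lowest counts came without replicate 1 of NC at 1% oxygen (5, 1% against 20% oxygen in NC cells) and without replicate 2 of either siOCT4 group (3, 1% against 20% oxygen in siOCT4 cells). The same on GC corrected values, an alternative chosen after seeing the data, gave 0 to 3, 3 to 8, 5 to 7, 1 to 6 and 3 to 6 (0.0130% to 12.1%, 29.5% to 46.9%, 33.7% to 42.7%, 13.6% to 40.1% and 30.4% to 42.8%). Changes of sign were ATG7 for siOCT4 against NC at 20% oxygen (from -0.064 to 0.22), BECN1 for 1% against 20% oxygen in NC cells (from -0.042 to 0.098) and GABARAPL1 for 1% against 20% oxygen in siOCT4 cells (from -0.057 to 0.16). The cause of a moved count was not tested.

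Correlations of replicate differences between groups ran from -0.233 to 0.0225. The lowest was between NC cultures at 20% and at 1% oxygen, whose replicate differences ran partly in opposite directions. No pair of groups had a clearly positive correlation, as a shift in the same direction in cultures of equal replicate number would give. Whether they were handled together is not given in the labels, and these correlations cannot decide it. With the replicate number as a block, 6, 5, 8, 6 and 8 genes were called (46.4%, 57.1%, 56.0%, 54.3% and 66.1%), and with block and GC correction 1, 8, 7, 3 and 5 (3.09%, 39.3%, 41.2%, 31.0% and 38.5%). The block gave BECN1 for siOCT4 against NC at 20% oxygen, and GABARAPL1 for siOCT4 against NC at 1% oxygen and for the interaction, an adjusted p above the threshold. It changed no other call of the 50.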
